A study of Mus musculus with 27 samples.

Results

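FOXO transcription factors and genes they are known to control were followed in irradiated mouse fibroblasts with and without PKBalpha, the protein kinase encoded by Akt1. The set comprised Foxo1, Foxo3, Irs2, Sesn3, Pik3ip1, Txnip, Cdkn1b, Ccng2, Bcl6 and Fbxo32. These are 10 of the 18194 genes measured, read by every probe set annotated to 1 of these symbols alone, which were 23 of 45037 probe sets. A probe set annotated to Foxo3 together with Gm38485 was not used. The samples were cells of a PKBalpha knockout line, of a line that the labels give as the knockout with PKBalpha put back (line R below), and of a wild-type line. Cells of each line were untreated, or collected 4 h or 24 h after gamma irradiation at 10 Gy. The series design gives 3 biological replicates for each of these 9 groups, which were read on 27 Affymetrix arrays. All were embryonic fibroblasts from females, at passage 45, in medium with 10% serum, and had been in culture for 24 h when they were irradiated. Each genotype was 1 line, so the effect of PKBalpha and other differences between these 3 lines cannot be told apart. The time at which untreated cells were collected is not stated in the labels, so irradiation and time in culture cannot be told apart either. The labels do not say what separated the replicates, so p-values measure the spread between these cultures only. The group of each sample was taken from its title, since the descriptions of 6 irradiated wild-type samples name them as untreated.

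FOXO proteins are transcription factors that growth factor signalling keeps in check. When insulin or growth factors activate PI3 kinase, the PKB kinases phosphorylate FOXO proteins, which then leave the nucleus, and when this signal is weak FOXO proteins stay in the nucleus and switch on genes for growth restraint, stress resistance, autophagy and protein breakdown. Several targets act back on the same pathway, among them Irs2, an adaptor that links the insulin receptor to PI3 kinase, Pik3ip1, an inhibitor of PI3 kinase, and Sesn3, a sestrin that restrains mTORC1. This regulation acts on the protein and its place in the cell, so transcript levels of Foxo1 and Foxo3 do not measure FOXO activity.

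The deposited values are intensities on a linear scale, a measure of the brightness of a probe set, with a background level of 48.3 set by probe sets for Y-linked genes, which cells from females lack. Levels are geometric means of the arrays of a group, and are compared only within a probe set. Differences are on the log2 scale, where a difference of 1 is 2-fold, with the standard error of the model. A gene was called changed at a limma p-value, adjusted over all 18194 genes by the Benjamini-Hochberg method, below 0.05. In RNA from a whole culture, fewer cells of a kind and less RNA per cell cannot be told apart.

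Before the members are described, 4 features of the arrays bear on them. Akt1 read 21.5 in the knockout (2.35 to 65.5 over 9 arrays) and 21 in line R (6.25 to 41.9), both below background, against 3549 in the wild type (2981 to 4546). By this probe set line R thus went against its label at the transcript level, and whether the probe set covers the sequence put back was not tested, so directions drawn from line R are those of the line labelled R. Fibroblast markers were above background in every group, 10 of 10, but 4 were higher and 3 lower in the knockout and 3 higher and 3 lower in line R, each against the wild type over the mean of the times. Of all genes, 33% and 34.1% were called in those comparisons. Thy1 averaged 11378 in the knockout and 6035 in line R, against 1973 in the wild type, and Dcn 3466 and 1055, against 11510. Over the mean of the lines 5 of the 10 were lower at 4 h than in untreated cells, Col1a1, Col3a1, Thy1, Pdgfra and Dcn (median of the list -0.33, 6 lower without the 5 arrays described below), and 4 were higher at 24 h than at 4 h (median 0.22). With all arrays, 15.5% and 10.4% of all genes were called in these comparisons. Dcn averaged 2151 at 4 h against 4273 in untreated cells (-0.99, adjusted p = 0.00041). Of other cell types, 0 to 3 of 5 epithelial, 0 to 1 of 4 endothelial, 0 to 2 of 4 leukocyte and 0 to 2 of 4 muscle markers were above background in a group. The summed intensity of the endothelial markers, of which Kdr alone averaged above background in any group, was 50.6 to 132 over knockout arrays and 79.1 to 114 over line R arrays, against 246 to 657 over wild-type arrays, and Krt8, an epithelial keratin, averaged 24.5 in the knockout and 22.8 in line R, against 79.3 in the wild type. The part of these markers in the differences below, between lines and after irradiation, was not tested. The p53 target Cdkn1a (p21), which served as a check of the irradiation, changed at 4 h in the wild type by 1.85 (adjusted p = 0.015). Its differences at 4 h were -0.01 in the knockout (adjusted p = 1) and 0.35 in line R (adjusted p = 0.73). Lastly, 5 arrays stood apart by the log2 ratio of the 3' to the 5' Gapdh control probe set, commonly read as a sign of RNA quality, with -0.187 to 0.16 against -0.466 to -0.298 on the other 22. They were replicate 2 of the untreated knockout, replicate 1 of untreated line R, replicate 2 of line R at 24 h, replicate 2 of the untreated wild type and replicate 0 of the wild type at 4 h. Among the 3 arrays of their own group, these 5 were the highest in 5 of 5 groups for Foxo1 and for Foxo3 in 4 of 5 for Irs2 and for Bcl6 and in 3 of 5 for Fbxo32. They were the lowest in 5 of 5 groups for Pik3ip1, in 4 of 5 for Txnip and for Cdkn1b, and in 3 of 5 for Sesn3 and for Ccng2. Because every untreated group held 1 of them, differences are also given below without these 5 arrays where a call changes.

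More members were called between the lines than after irradiation. Over the mean of the 3 times, 4 of 10 members were called in the knockout against the wild type, Fbxo32 higher and Irs2, Sesn3 and Txnip lower, where 33% of all genes were called. In line R against the wild type 6 members were called, Foxo1 and Fbxo32 higher and Irs2, Sesn3, Txnip and Cdkn1b lower, where 34.1% of all genes were called. Line R differed from the knockout in 3 members, with Foxo1 higher and Cdkn1b and Fbxo32 lower, where 17.1% of all genes were called. These shares of members were near or above those of all genes, but each member is 10% of the set. In untreated cells alone, Fbxo32 was higher and Sesn3 lower in the knockout and likewise in line R against the wild type, 2 of 10 members each, where 17.6% and 18.8% of all genes were called, so both shares were near the background. No member was called between untreated line R and the untreated knockout, where 3.79% of genes were called (3 members at an unadjusted p below 0.05). Both comparisons against the wild type share its arrays.

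**Figure D1:**
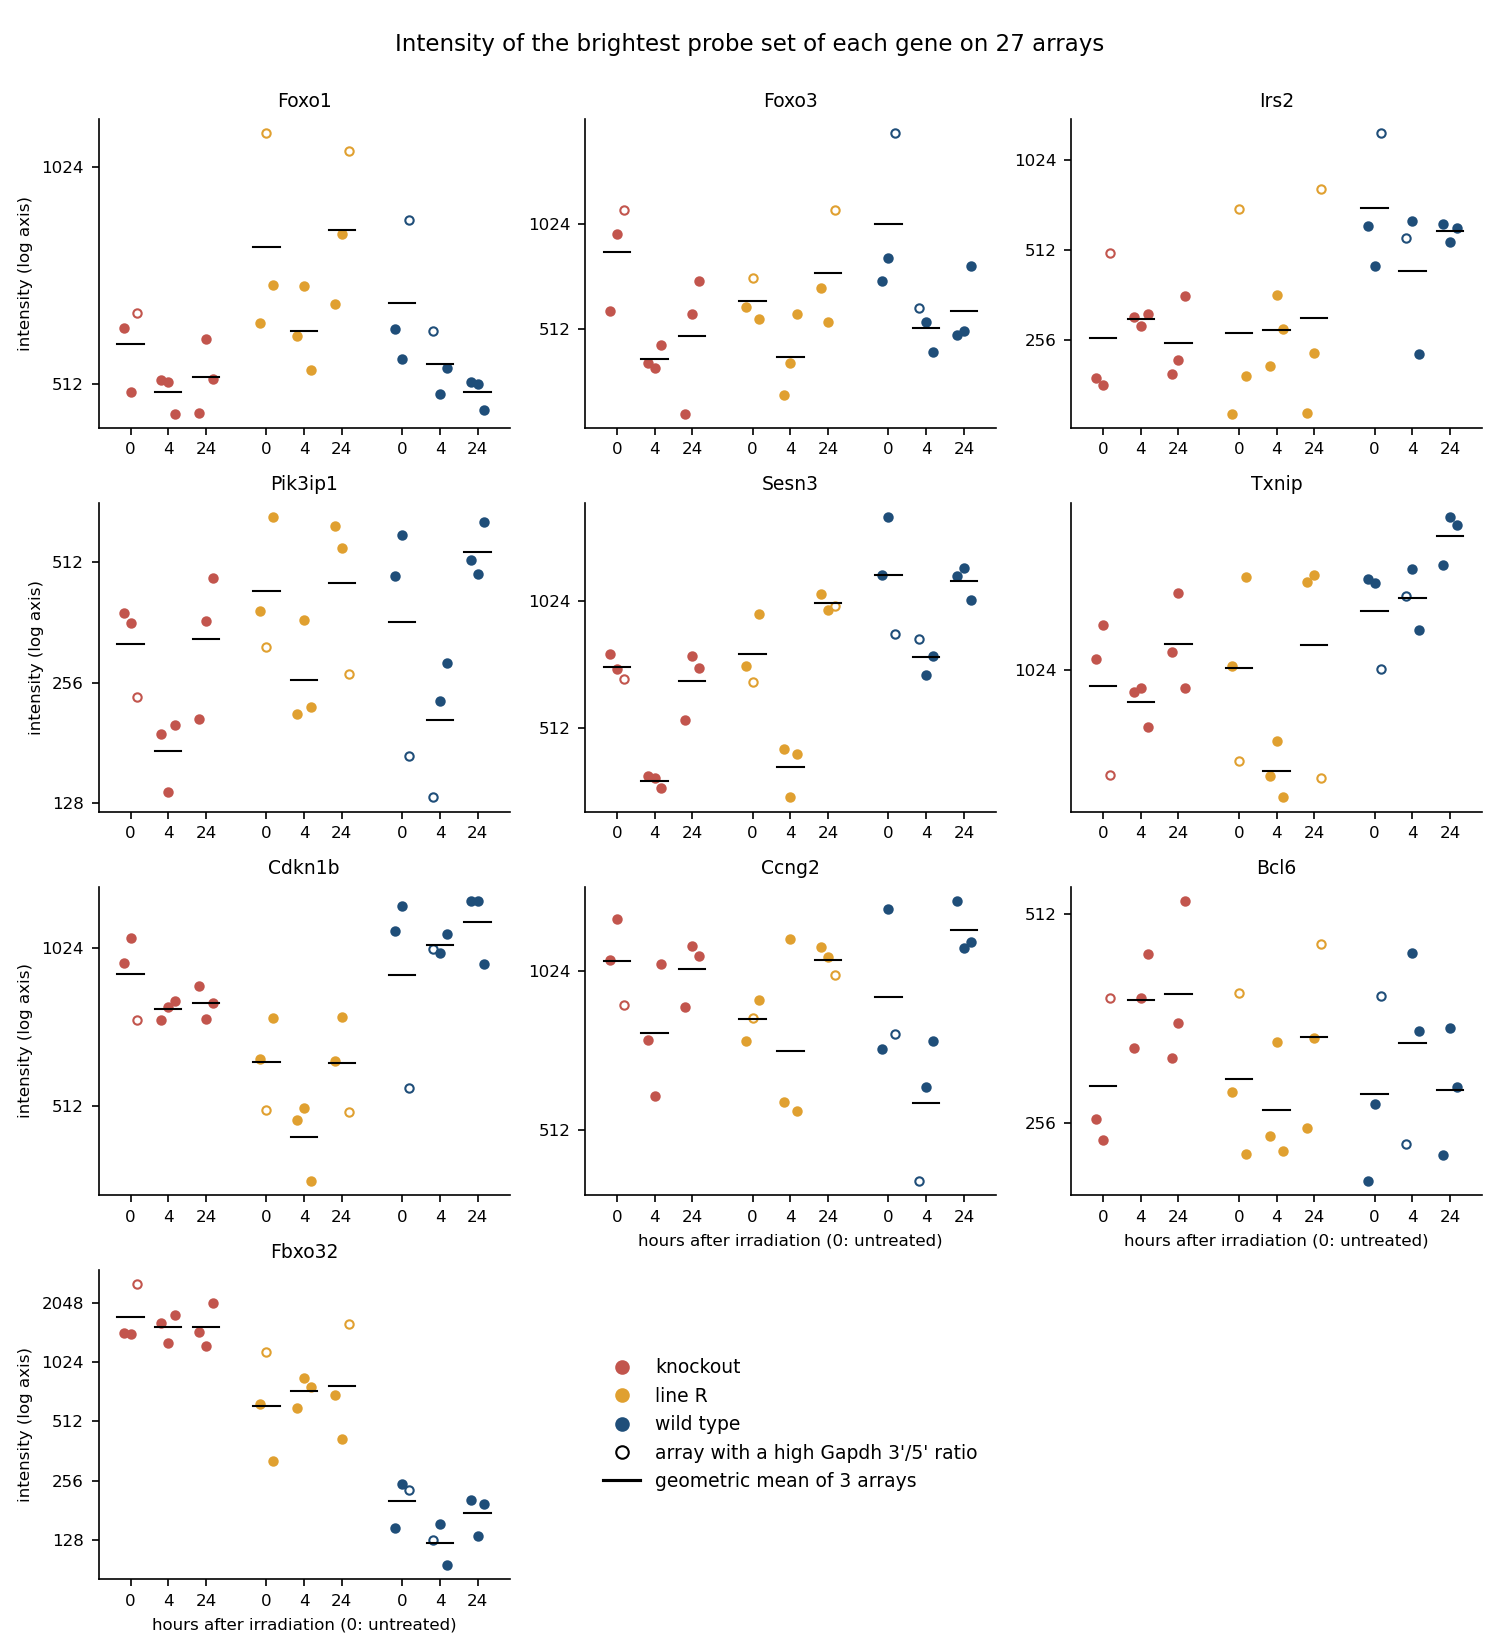
Intensity (log scale) of the brightest probe set of each of the 10 members on all 27 arrays, by line and time, with bars at the geometric mean of each group of 3 and open circles for the 5 arrays with a high Gapdh ratio. Fbxo32 is highest in the knockout and lowest in the wild type at every time, and Sesn3 is lowest at 4 h in each line.

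Irradiation called few members. At 4 h against untreated cells, Sesn3 was the 1 member called in the knockout, where 0.368% of all genes were called, and the 1 member called in line R, where 0.978% were. In the wild type 0 of 10 were called, where 3.25% of all genes were (3 members at an unadjusted p below 0.05), though the median member difference was -0.65 against -0.01 for all genes. The member medians at 4 h were -0.22 in the knockout and -0.41 in line R. At 24 h against untreated cells limma called 0 members in each line, where it called 0% of genes in the knockout (1064 at an unadjusted p below 0.05), 0% in line R (830 unadjusted) and 0.0495% in the wild type (1745 unadjusted). Of the members, 1 in the knockout, 0 in line R and 1 in the wild type passed an unadjusted p of 0.05 there. Between 24 h and 4 h, Sesn3 was called in line R, 1 of 10 members where 1.57% of genes were called, and no member was called in the knockout, where 0.0055% were (1 member at an unadjusted p below 0.05), or in the wild type, where 2.6% were (3 members). All 10 members had a positive difference between 24 h and 4 h in line R, with a median of 0.5 against 0.07 for all genes.

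The mean of the 3 lines, a comparison added after the values had been seen, gave more calls. At 4 h against untreated cells 3 of 10 members fell, Foxo3, Sesn3 and Pik3ip1, where 15.5% of genes were called, and 9 of 10 had a negative difference (median -0.26, against -0.03 for all genes). At 24 h against untreated cells 0 members were called, where 0.313% of genes were (1 member at an unadjusted p below 0.05). Between 24 h and 4 h Sesn3, Pik3ip1 and Ccng2 rose, where 10.4% of genes were called, and all 10 members had a positive difference (median 0.28, against 0.05 for all genes). The share of members called was above that of all genes at both steps, by 1 or 2 members.

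The tests of whether the response itself differed between lines called no member. For the knockout against the wild type, limma called 0.011% of genes at 4 h and 0.0055% at 24 h. For line R against the wild type it called 0.0165% at 4 h and 0.0055% at 24 h, and for line R against the knockout 0% at 4 h (537 genes at an unadjusted p below 0.05) and 0.0055% at 24 h. No member passed an unadjusted p of 0.05 in any of these 6 comparisons, and their lowest adjusted p was 0.89. Calls of Sesn3 at 4 h in the knockout and line R but not in the wild type are therefore not shown to be a difference between lines.

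Promoters are shown for Sesn3, the 1 member whose brightest probe set was called after irradiation within a line, and for Irs2, Txnip and Ccng2, chosen because they hold a FOXO element. RefSeq promoters of the mouse build GRCm38.p6, from 250 bases before to 50 after the start, were found for 9 of the 10 members. Each was searched on both strands for the FOXO core element GTAAACA, the insulin response element CAAAACA and the E box CACGTG, a site that MondoA and ChREBP as well as MYC can bind. Only these exact letters counted as a match, so E boxes that differ from CACGTG were not searched for in any promoter, Txnip's included. Of all 32851 promoters in the table, 3.65% held GTAAACA, 6.28% CAAAACA and 7.15% CACGTG, and 9.63% held 1 or both FOXO elements. The sequences run 5' to 3' along the gene with matches in capitals. In Irs2 (chr8:11008880-11009179, - strand) the capitals are an E box at -44 to -39 and CAAAACA, read on the other strand, at -37 to -31. In Txnip (chr3:96557707-96558006, + strand) they are GTAAACA at -121 to -115, and in Ccng2 (chr5:93267323-93267622, + strand) CAAAACA at -16 to -10, counted from the start. Sesn3 (chr9:14276051-14276350, + strand) held none of the 3 motifs, nor did Foxo1, Foxo3, Pik3ip1 and Cdkn1b, and 1 of 2 promoters of Bcl6 held an E box alone. A match of letters is not a bound site, and no match says only that these letters are not in this window.
Sesn3: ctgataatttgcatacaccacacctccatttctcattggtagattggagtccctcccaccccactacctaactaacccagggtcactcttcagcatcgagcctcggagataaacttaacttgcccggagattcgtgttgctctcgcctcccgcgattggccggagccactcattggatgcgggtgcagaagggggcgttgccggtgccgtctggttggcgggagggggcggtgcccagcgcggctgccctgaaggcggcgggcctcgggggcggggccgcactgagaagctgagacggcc
Irs2: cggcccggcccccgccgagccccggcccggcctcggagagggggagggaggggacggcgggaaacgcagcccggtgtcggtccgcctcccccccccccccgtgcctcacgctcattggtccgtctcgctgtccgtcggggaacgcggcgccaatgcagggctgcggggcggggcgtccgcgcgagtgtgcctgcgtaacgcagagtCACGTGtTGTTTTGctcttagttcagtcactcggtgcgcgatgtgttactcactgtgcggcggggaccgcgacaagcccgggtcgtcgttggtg
Txnip: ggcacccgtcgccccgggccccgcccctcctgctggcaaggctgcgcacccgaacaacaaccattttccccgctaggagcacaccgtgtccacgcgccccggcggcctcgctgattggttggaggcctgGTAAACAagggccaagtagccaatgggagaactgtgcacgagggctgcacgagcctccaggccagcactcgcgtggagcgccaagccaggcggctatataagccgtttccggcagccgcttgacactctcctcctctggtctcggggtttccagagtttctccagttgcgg
Ccng2: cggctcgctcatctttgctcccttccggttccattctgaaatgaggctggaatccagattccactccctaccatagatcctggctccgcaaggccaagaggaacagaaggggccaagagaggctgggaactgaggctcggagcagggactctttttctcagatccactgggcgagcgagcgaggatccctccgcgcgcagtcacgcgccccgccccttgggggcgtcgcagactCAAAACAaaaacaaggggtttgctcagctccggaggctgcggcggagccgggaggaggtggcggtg

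Foxo1 (chr3:52268337-52350109), a FOXO factor known for its part in insulin action, read 612, 500 and 643 in the untreated knockout, 518, 515 and 466 at 4 h, and 467, 591 and 521 at 24 h. In line R it read 623, 1140 and 702 untreated, 597, 699 and 536 at 4 h, and 661, 825 and 1077 at 24 h. The wild type gave 611, 554 and 864 untreated, 607, 496 and 539 at 4 h, and 516, 513 and 471 at 24 h. The lines overlapped, and the highest arrays of line R (1140 and 1077) and of the wild type (864) were among the 5 that stood apart. Over the 3 times Foxo1 averaged 739 in line R against 566 in the wild type (0.39 ± 0.12, adjusted p = 0.019) and 534 in the knockout (0.47 ± 0.12, adjusted p = 0.011). Without the 5 arrays these were 0.33 (adjusted p = 0.0068) and 0.34 (adjusted p = 0.0079). A second probe set of Foxo1 separated the lines without overlap, at 473 to 637 in line R against 291 to 382 in the wild type and 303 to 413 in the knockout. By that probe set line R differed from the wild type by 0.61 (adjusted p = 2.3e-05 over probe sets) and from the knockout by 0.51 (adjusted p = 0.00066). Another Foxo1 probe set overlapped between the lines, at 455 to 1020 in line R against 366 to 663 in the wild type and 357 to 633 in the knockout, and did not pass (0.39, adjusted p = 0.075, and 0.42, adjusted p = 0.089). The mean of all 4 Foxo1 probe sets, 1 of which lay below background in every line, did not pass (0.30 in both comparisons, adjusted p = 0.17 and 0.24). By the brightest, the call of line R against the wild type was also lost with the compared arrays only (adjusted p = 0.052). The knockout and the wild type differed by -0.08 ± 0.12 (95% interval -0.34 to 0.17). No difference of Foxo1 after irradiation passed, with -0.22, -0.39 and -0.28 at 4 h in the knockout, line R and the wild type.

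Foxo3 (chr10:42181845-42276695), the FOXO factor linked to quiescence and stress resistance, read 577, 956 and 1123 in the untreated knockout, 411, 396 and 461 at 4 h, and 294, 564 and 703 at 24 h. In line R it read 594, 717 and 546 untreated, 333, 411 and 565 at 4 h, and 673, 536 and 1123 at 24 h. In the wild type it read 701, 817 and 1857 untreated, 588, 536 and 440 at 4 h, and 494, 505 and 774 at 24 h. All 3 arrays at 4 h lay below all 3 untreated arrays in the knockout and in the wild type, and the groups overlapped in line R. The differences at 4 h were -1.02 ± 0.37 in the knockout (adjusted p = 0.23), -0.53 ± 0.37 in line R (0.54) and -0.98 ± 0.37 in the wild type (0.16), none past the threshold. Averaged over the lines, Foxo3 fell to 453 at 4 h, against 812 in untreated cells (-0.84 ± 0.21, adjusted p = 0.011). That call was lost without the 5 arrays (-0.62, adjusted p = 0.052), which held the highest untreated Foxo3 value of the knockout, of line R and of the wild type. It was also lost with the mean of the 3 Foxo3 probe sets (-0.28, adjusted p = 0.19), 1 of which averaged 42.8 in line R, below background. The second probe set was above background in all 9 groups, and its step at 4 h was smaller than that of the brightest. It averaged 198 at 4 h against 263 untreated in the knockout, 208 against 267 in line R and 282 against 304 in the wild type. At 24 h Foxo3 averaged 593 by the brightest, a difference of -0.45 ± 0.21 from untreated cells (adjusted p = 0.36). The lines did not differ past the threshold by the brightest probe set, with 560 in the knockout and 579 in line R, against 673 in the wild type. The second probe set of Foxo3 put the knockout below the wild type (-0.39, adjusted p = 0.03 over probe sets). Foxo4, another gene of the family, fell at 4 h over the mean of the lines to 326, against 433 in untreated cells (-0.41, adjusted p = 0.0032).

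Irs2 (chr8:10984681-11008929) was lower in the knockout and in line R than in the wild type. It read 191, 181 and 502 in the untreated knockout, 305, 284 and 313 at 4 h, and 197, 219 and 359 at 24 h. Line R gave 145, 705 and 194 untreated, 210, 363 and 279 at 4 h, and 146, 231 and 819 at 24 h, against 614, 454 and 1262 untreated, 563, 641 and 230 at 4 h, and 624, 543 and 609 at 24 h in the wild type. Of the wild-type arrays only 1, at 4 h, lay below 454, and of those of the knockout and line R only 502, 705 and 819 lay above it, all on arrays that stood apart. Over the 3 times Irs2 averaged 268 in the knockout against 567 in the wild type (-1.08 ± 0.36, adjusted p = 0.024), and 283 in line R against the same 567 (-1 ± 0.36, adjusted p = 0.034). Without the 5 arrays the differences were -1.04 (adjusted p = 0.0012) and -1.27 (adjusted p = 0.0003), and untreated cells alone then passed, with -1.51 (adjusted p = 0.016) and -1.65 (adjusted p = 0.0091). With all arrays the untreated differences were -1.45 ± 0.62 (adjusted p = 0.12) and -1.38 ± 0.62 (adjusted p = 0.14), and the difference of line R passed without its replicate 1 (-2.07, adjusted p = 0.022). The knockout call was lost without replicate 2 of the untreated wild type (-0.94, adjusted p = 0.054), replicate 1 of the wild type at 4 h (-0.99, 0.051) or replicate 1 of the untreated knockout (-0.99, 0.05). The line R call held in 16 of the 27 fits that left out 1 array, and was lost at -0.83 to -1 (adjusted p = 0.051 to 0.081) without replicates 0 and 2 untreated, 0 and 2 at 4 h, or 0 and 1 at 24 h of line R. It was likewise lost without replicate 2 untreated, 0 or 1 at 4 h, or 0 or 2 at 24 h of the wild type, and with the compared arrays only (adjusted p = 0.067). Irs2 showed no called difference after irradiation, with 0.22, 0.03 and -0.69 at 4 h in the knockout, line R and the wild type (each ± 0.62). Only 1 probe set read it.

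Pik3ip1 (chr11:3319241-3342971) read 383, 360 and 236 in the untreated knockout, 190, 136 and 200 at 4 h, and 207, 366 and 467 at 24 h. It read 388, 315 and 666 in untreated line R, 214, 367 and 222 at 4 h, and 631, 558 and 269 at 24 h. Wild-type cells gave 473, 599 and 168 untreated, 132, 230 and 287 at 4 h, and 518, 479 and 645 at 24 h. The low values 236, 315, 168, 132 and 269 were those of the 5 arrays that stood apart. The groups at 24 h and 4 h did not overlap in the knockout (0.92 ± 0.45, adjusted p = 0.62) or the wild type (1.40 ± 0.45, adjusted p = 0.11), and overlapped in line R (0.81 ± 0.45, adjusted p = 0.41). Over the mean of the lines Pik3ip1 fell at 4 h to 210, against 369 in untreated cells (-0.81 ± 0.26, adjusted p = 0.038), and averaged 433 at 24 h, above the 210 at 4 h (1.05 ± 0.26, adjusted p = 0.014). Without the 5 arrays these were -1.04 (adjusted p = 0.0044) and 1.07 (adjusted p = 0.0023). The fall held in 16 of 27 fits that left out 1 array, and was lost at -0.69 to -0.84 (adjusted p = 0.05 to 0.083) without replicate 0 or 1 of the untreated knockout or of the knockout at 4 h, replicate 2 of untreated line R or replicate 0 or 2 of line R at 4 h. It was also lost without replicate 0 or 1 of the untreated wild type or of the wild type at 4 h. It was lost as well with equal array medians (-0.73, adjusted p = 0.11), quantile normalization (-0.72, adjusted p = 0.087) and the compared arrays only (adjusted p = 0.059), and the rise between 24 h and 4 h was lost with equal array medians (0.93, adjusted p = 0.051). The second probe set of Pik3ip1 fell by 0.83 at 4 h (adjusted p = 0.0027 over probe sets) and was 0.85 higher at 24 h than at 4 h (adjusted p = 0.003). By that probe set line R also lay 0.63 above the knockout (adjusted p = 0.011), where the brightest gave 0.50 ± 0.26 (adjusted p = 0.22) and, without the 5 arrays, 0.63 (adjusted p = 0.03). The knockout differed by -0.39 ± 0.26 from the wild type, not past the threshold (adjusted p = 0.29), and passed without the 5 arrays (-0.61, adjusted p = 0.021).

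Sesn3 (chr9:14276301-14326134) fell at 4 h and stood near its starting level at 24 h. It read 767, 705 and 669 in the untreated knockout, 393, 389 and 368 at 4 h, and 535, 759 and 712 at 24 h. Line R gave 716, 657 and 953 untreated, 456, 350 and 445 at 4 h, and 1062, 976 and 996 at 24 h, and the wild type 1183, 1622 and 853 untreated, 830, 683 and 759 at 4 h, and 1176, 1228 and 1032 at 24 h. In each of the 3 lines every array at 4 h lay below every untreated array and below every array at 24 h. At 4 h Sesn3 fell to 383 in the knockout, against 713 in untreated cells (-0.90 ± 0.19, adjusted p = 0.047), and to 414 in line R, against 765 (-0.89 ± 0.19, adjusted p = 0.037). The wild type gave 755 at 4 h against 1178 untreated, which did not pass (-0.64 ± 0.19, adjusted p = 0.072). It passed without replicate 2 of the untreated wild type, 1 of the arrays that stood apart (-0.88, adjusted p = 0.024), and without all 5 the differences were -0.94 in the knockout (adjusted p = 0.031), -1 in line R (0.041) and -0.94 in the wild type (0.03). With all arrays the wild type passed with an intensity trend in the prior variance (adjusted p = 0.043) and with genes above background only (0.039). It also passed with a floor at background (0.044) and with the mean of both probe sets (-0.87, 0.044). Averaged over the lines, Sesn3 fell to 493 at 4 h, against 863 untreated (-0.81 ± 0.11, adjusted p = 0.00015).

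The calls of Sesn3 at 4 h within a line were close to the threshold. The knockout call held in 7 of 27 fits that left out 1 array, and in none of those that left out 1 of the 6 arrays compared (-0.84 to -0.94, adjusted p = 0.085 to 0.16). The other arrays whose loss ended it were, in the wild type, replicate 0 untreated, all 3 at 4 h and all 3 at 24 h, then replicate 2 of the knockout at 24 h, and all 3 of line R at 4 h and at 24 h (-0.90, adjusted p = 0.053 to 0.064). The line R call held in 17 of 27 fits. It was lost without replicate 1 or 2 untreated or any replicate at 4 h of line R (-0.73 to -1, adjusted p = 0.085 to 0.14), and without replicate 0 or 1 of line R at 24 h, replicate 1 of the untreated knockout or replicate 0 or 1 of the knockout at 4 h (-0.89, adjusted p = 0.05 to 0.052). Both Sesn3 calls at 4 h were also lost when array medians were made equal (-0.81 with adjusted p = 0.19 in the knockout, -0.86 with 0.12 in line R) and with the mean of both probe sets (-1.02 with 0.057, and -0.86 with 0.08). They were lost as well when p-values were adjusted over all probe sets (0.1 and 0.097) and when only the arrays compared were fitted (0.12 and 0.41). The knockout call was lost too with the replicate number as a block (adjusted p = 0.059) and with quantile normalization (-0.84, adjusted p = 0.079).

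Between 24 h and 4 h, Sesn3 in line R was 1010 against 414 (1.29 ± 0.19, adjusted p = 0.0023). The same difference was 0.79 ± 0.19 in the knockout (661 against 383, adjusted p = 0.15) and 0.60 ± 0.19 in the wild type (1142 against 755, adjusted p = 0.11), neither past the threshold. The mean of the lines was 914 at 24 h against 493 at 4 h (0.89 ± 0.11, adjusted p = 8.8e-05). Its difference at 24 h from untreated cells was 0.08 ± 0.11 (95% interval -0.15 to 0.31). In line R all 3 arrays at 24 h lay above all 3 untreated ones, at 0.40 ± 0.19 (adjusted p = 1). The line R call of Sesn3 between 24 h and 4 h was lost with the compared arrays only (adjusted p = 0.11).

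Sesn3 also differed between the lines. Untreated, it averaged 713 in the knockout against 1178 in the wild type (-0.73 ± 0.19, adjusted p = 0.011), without overlap, and 765 in line R (-0.62 ± 0.19 against the wild type, adjusted p = 0.027). Without replicate 1 of the untreated wild type, its highest array at 1622, these were -0.50 (adjusted p = 0.084) and -0.39 (adjusted p = 0.18). The untreated call in line R was also lost without replicate 0 of the untreated wild type (-0.62, 0.069) and without replicate 0 (-0.57, 0.088) or 1 (-0.51, 0.11) of untreated line R. Both untreated calls were lost with equal array medians (-0.50 in each, adjusted p = 0.17 and 0.18) and with the compared arrays only (adjusted p = 0.22 and 0.35). The untreated call in line R was lost too when p-values were adjusted over all probe sets (0.053). Over the 3 times the differences were -0.83 ± 0.11 in the knockout (565 against 1005, adjusted p = 4.9e-06) and -0.56 ± 0.11 in line R (684 against 1005, adjusted p = 0.00045). Line R lay 0.28 ± 0.11 above the knockout (adjusted p = 0.1), and at an adjusted p of 0.05 without replicate 2 of the untreated wild type. The second probe set of Sesn3 gave -0.82 for the knockout against the wild type (adjusted p = 0.00089 over probe sets). It averaged 413 (224 to 840) in the knockout and 563 (312 to 1009) in line R, against 726 (409 to 1130) in the wild type. The arrays of both lines thus overlapped with those of the wild type. In line R it averaged 599 untreated, 336 at 4 h and 889 at 24 h, against 1053, 491 and 741 in the wild type, so line R was the higher at 24 h. The same probe set gave -1.03 at 4 h against untreated cells (adjusted p = 0.0011) and 0.98 at 24 h against 4 h (adjusted p = 0.0019) over the mean of the lines. Both Sesn3 probe sets ran together over the 27 arrays, which share lines and times (r = 0.89).

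**Figure D2:**
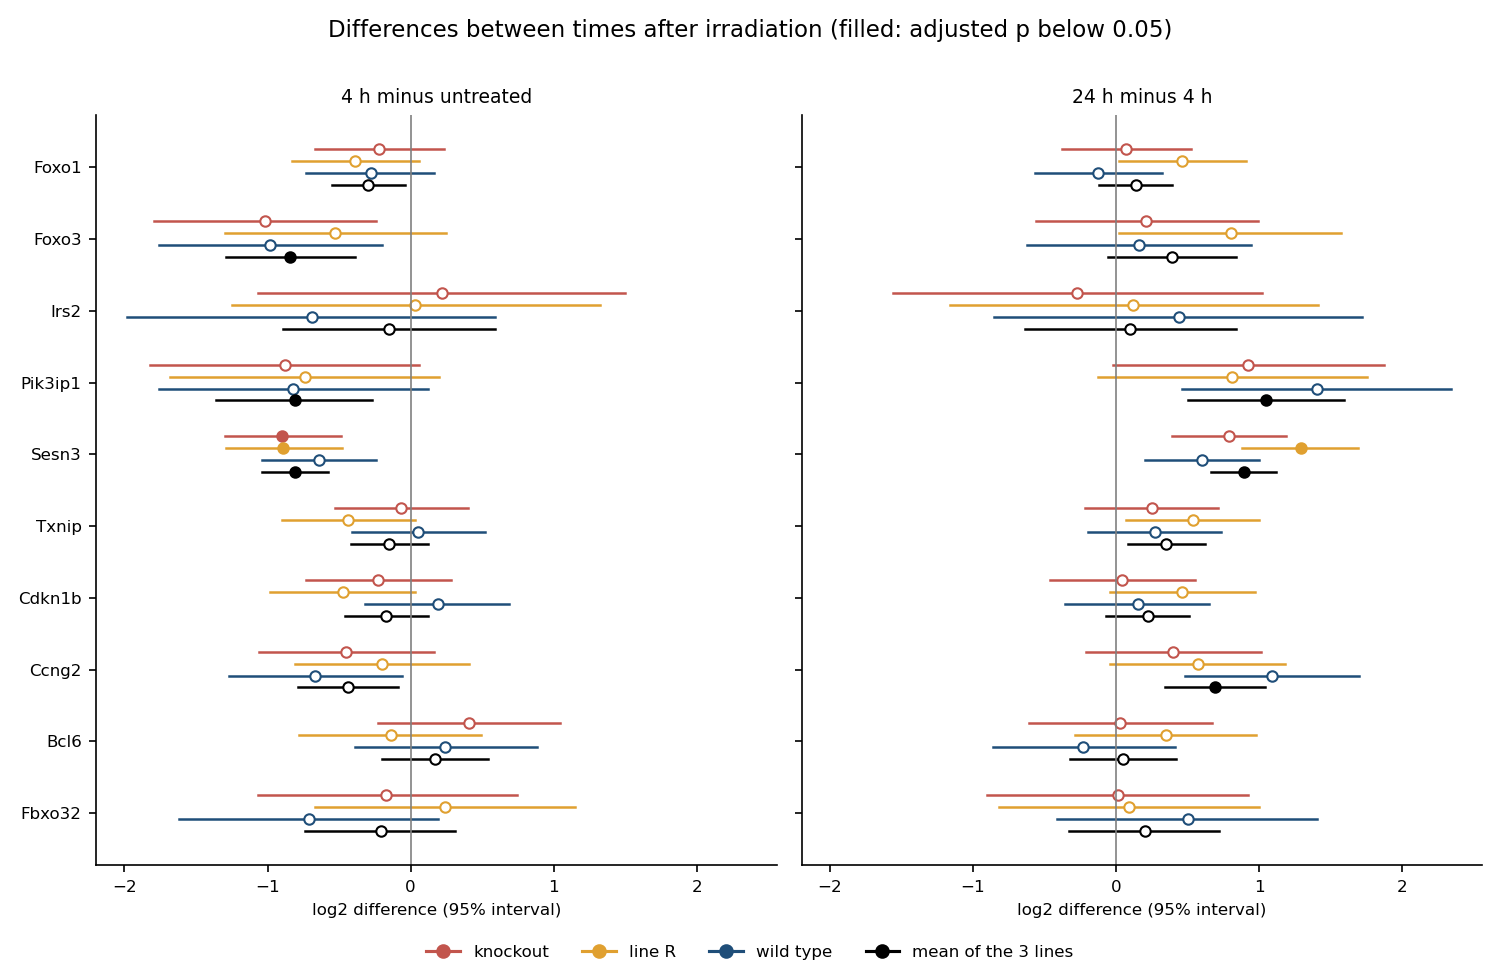
Differences of each member on the log2 scale (points, with 95% intervals) at 4 h against untreated and at 24 h against 4 h, in the knockout, line R, the wild type and the mean of the lines, filled where the adjusted p is below 0.05. Sesn3 is negative at 4 h in every line and positive between 24 h and 4 h.

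Txnip (chr3:96557957-96561857), which encodes a thioredoxin-binding arrestin that limits glucose uptake, read 1056, 1168 and 750 in the untreated knockout, 957, 969 and 865 at 4 h, and 1079, 1284 and 969 at 24 h. In line R it read 1034, 781 and 1344 untreated, 749, 829 and 702 at 4 h, and 1324, 1353 and 743 at 24 h. In the wild type it read 1337, 1320 and 1026 untreated, 1272, 1377 and 1150 at 4 h, and 1392, 1607 and 1568 at 24 h. Wild-type arrays were the higher ones at 4 h and at 24 h, where they did not overlap with either line, and the lowest values of several groups (750, 781, 743 and 1026) were on arrays that stood apart. Over the 3 times Txnip was lower in the knockout, at 999 against 1327 in the wild type (-0.41 ± 0.13, adjusted p = 0.018), and in line R, at 950 (-0.48 ± 0.13, adjusted p = 0.0055). Both calls were lost when array medians were made equal (-0.22 with adjusted p = 0.37, and -0.44 with 0.057) and with the mean of both Txnip probe sets (-0.26 with 0.51, and -0.42 with 0.24). After irradiation no difference of Txnip passed with all arrays. The mean of the lines was 1226 at 24 h against 962 at 4 h (0.35 ± 0.13, adjusted p = 0.093). This passed without replicate 2 of line R at 24 h (0.45, adjusted p = 0.017), and without the 5 arrays (0.45, adjusted p = 0.0024). Without the 5 arrays the difference at 4 h from untreated cells also passed (-0.32, adjusted p = 0.021), as did that between 24 h and 4 h in line R (0.82, adjusted p = 0.018).

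Cdkn1b (chr6:134920401-134925525), which encodes the cyclin-dependent kinase inhibitor p27, was read by probe sets that gave unlike answers after irradiation when all arrays were used. By the brightest it read 961, 1071 and 746 in the untreated knockout, 748, 790 and 811 at 4 h, and 868, 749 and 806 at 24 h. Line R gave 630, 504 and 753 untreated, 481, 507 and 368 at 4 h, and 625, 756 and 498 at 24 h, against 1106, 1231 and 555 untreated, 1021, 1002 and 1092 at 4 h, and 1262, 1259 and 957 at 24 h in the wild type. Line R was the lowest, and on the 22 arrays that did not stand apart it read 368 to 756, against 957 to 1262 in the wild type. Over the 3 times Cdkn1b averaged 556 in line R against 1028 in the wild type (-0.89 ± 0.14, adjusted p = 3.2e-05) and 833 in the knockout (-0.58 ± 0.14, adjusted p = 0.0053). The knockout lay -0.30 ± 0.14 from the wild type (adjusted p = 0.11), which passed without replicate 2 of the untreated wild type (-0.42, adjusted p = 0.0048) or without the 5 arrays (-0.38, adjusted p = 0.004). In untreated cells line R lay -0.55 ± 0.24 from the wild type (adjusted p = 0.13), which passed without that same replicate (-0.91, adjusted p = 0.0034) or without the 5 (-0.76, adjusted p = 0.0057). With all arrays this difference was -1.63 by the second probe set (adjusted p = 0.00025 over probe sets). The mean of both probe sets gave -1.09 (adjusted p = 0.00031).

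By the second probe set, Cdkn1b fell at 4 h, a fall that was not called by the brightest with all arrays. This probe set read 271, 348 and 309 in the untreated knockout, 187, 104 and 131 at 4 h, and 257, 252 and 277 at 24 h. In line R it read 161, 134 and 166 untreated, 146, 101 and 106 at 4 h, and 215, 169 and 157 at 24 h. In the wild type it read 458, 489 and 476 untreated, 226, 283 and 112 at 4 h, and 303, 377 and 370 at 24 h. At 4 h the wild type fell to 193, against 474 untreated (-1.30, adjusted p = 0.03 over probe sets), where the brightest probe set gave 0.19 ± 0.24 (adjusted p = 0.77). That value rested on replicate 2 of the untreated wild type, at 555, 1 of the arrays that stood apart, and was -0.17 without it (adjusted p = 0.79). Over the mean of the lines it fell to 145 at 4 h, against 282 untreated (-0.96, adjusted p = 0.0011), and was 0.80 higher at 24 h than at 4 h (adjusted p = 0.0047), where the brightest gave -0.17 and 0.22. The brightest passed at 4 h over the mean of the lines without the 5 arrays (-0.39, adjusted p = 0.016), with -0.38 in the knockout (adjusted p = 0.25), -0.62 in line R (0.088) and -0.16 in the wild type (0.73). Both probe sets of Cdkn1b put line R below the wild type (-1.11 for the second, adjusted p = 1.2e-05) and below the knockout (-0.60, adjusted p = 0.015), and the second also put the knockout below the wild type (-0.51, adjusted p = 0.02). Which parts of the transcript each reads was not analysed here.

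**Figure D3:**
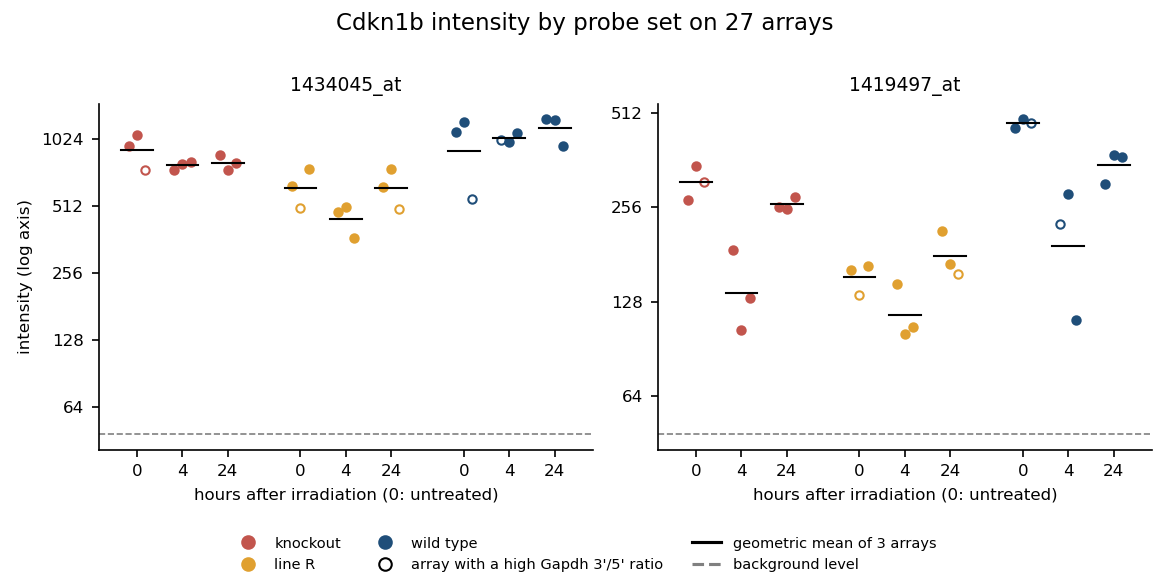
Intensity (log scale) of both Cdkn1b probe sets on the 27 arrays, by line and time, with bars at the geometric mean of each group and open circles for the 5 arrays with a high Gapdh ratio. The second probe set is lower at 4 h than in untreated cells in each line, and the group mean of the brightest is not in the wild type, where 1 untreated array that stood apart reads 555.

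Ccng2 (chr5:93267573-93276231), which encodes cyclin G2, a cyclin linked to cell cycle arrest, read 1077, 1288 and 884 in the untreated knockout, 758, 595 and 1060 at 4 h, and 878, 1146 and 1096 at 24 h. In line R it read 757, 836 and 905 untreated, 579, 1182 and 555 at 4 h, and 1138, 1092 and 1007 at 24 h. The wild type gave 731, 1344 and 778 untreated, 409, 619 and 757 at 4 h, and 1396, 1136 and 1164 at 24 h. In the wild type the 24 h arrays lay above those at 4 h without overlap (1.09 ± 0.29, adjusted p = 0.051), just short of the threshold. This passed without replicate 1 (adjusted p = 0.038) or 2 (0.049) of the untreated wild type, replicate 2 of the wild type at 4 h (1.29, 0.032), replicate 2 of the knockout at 4 h (0.048) or replicate 1 of line R at 4 h (0.029). With all arrays it passed with a replicate block (0.047), an intensity trend in the prior variance (0.022) and genes above background only (0.026). It also passed with quantile normalization (0.04), an offset of 16 (0.037) and a floor at background (0.031). The mean of the lines for Ccng2 was 1109 at 24 h against 689 at 4 h (0.69 ± 0.17, adjusted p = 0.012), and 0.62 without the 5 arrays (adjusted p = 0.034). That call was lost with equal array medians (0.57, adjusted p = 0.052) and with the mean of both probe sets (0.61, adjusted p = 0.22). At 4 h the mean of the lines lay -0.44 ± 0.17 from untreated cells (adjusted p = 0.086), which passed without replicate 1 of line R at 4 h (-0.56, adjusted p = 0.018). The lines did not differ past the threshold, with 0.14 ± 0.17 for the knockout (95% interval -0.21 to 0.49) and 0 ± 0.17 for line R (-0.35 to 0.35) against the wild type. The second Ccng2 probe set averaged 1008 at 24 h against 773 at 4 h in the knockout and 1382 against 602 in the wild type. In line R it averaged 675 against 676, with 236 at 24 h on the array that stood apart.

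Bcl6 (chr16:23965050-23988866), a transcriptional repressor best known from B cells, showed no called difference with all arrays. It ran from 242 to 535 in the knockout, from 231 to 464 in line R and from 211 to 450 in the wild type, with means of 352, 300 and 300. The differences from the wild type were 0.23 ± 0.18 in the knockout (95% interval -0.13 to 0.60) and 0 ± 0.18 in line R (-0.37 to 0.37). The knockout passed when array medians were made equal (0.42, adjusted p = 0.027). Its 2 probe sets did not run together over the 27 arrays (r = 0.05).

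Fbxo32 (chr15:58175879-58214892), which encodes the muscle ubiquitin ligase atrogin-1, differed most between the lines. The knockout read 1434, 1421 and 2536 untreated, 1616, 1279 and 1765 at 4 h, and 1458, 1242 and 2047 at 24 h. Line R read 627, 1155 and 324 untreated, 596, 846 and 764 at 4 h, and 700, 417 and 1595 at 24 h. The wild type read 148, 247 and 230 untreated, 129, 154 and 95.8 at 4 h, and 204, 135 and 196 at 24 h. Every array of the knockout and of line R lay above every wild-type array, and the knockout and line R overlapped through the 24 h array of line R at 1595, 1 of the arrays that stood apart. Over the 3 times Fbxo32 was 9.77-fold higher in the knockout, at 1603 against 164 in the wild type (3.29 ± 0.25, adjusted p = 2e-09). It was 4.28-fold higher in line R, at 703 (2.10 ± 0.25, adjusted p = 1.1e-06), and lay below the knockout there (-1.19 ± 0.25, adjusted p = 0.002). Its order was thus knockout, line R, wild type, with each step past the threshold, on the levels of this probe set.

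In untreated cells Fbxo32 read 1729 in the knockout against 204 in the wild type (3.09 ± 0.43, adjusted p = 2.8e-05) and 617 in line R against the same 204 (1.60 ± 0.43, adjusted p = 0.012). The call in line R was lost without its replicate 1, on an array that stood apart (1.15, adjusted p = 0.08), or without replicate 0 of the untreated wild type (1.37, adjusted p = 0.066). It was lost as well with the compared arrays only (adjusted p = 0.16). Untreated line R lay -1.49 ± 0.43 from the untreated knockout without overlap (adjusted p = 0.064). This passed without replicate 1 of untreated line R (-1.94, adjusted p = 0.023), replicate 1 (-1.49, 0.044) or 2 (-1.49, 0.03) of line R at 24 h, and without the 5 arrays (-1.66, adjusted p = 0.026). No irradiation difference of Fbxo32 passed, with -0.17, 0.24 and -0.71 (each ± 0.43) at 4 h in the knockout, line R and the wild type.

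The other probe sets of Fbxo32 gave the same order of lines. The second averaged 669 in the knockout against 95.2 in the wild type (2.81, adjusted p = 6.6e-09 over probe sets), and for line R it differed by 1.77 from the wild type (adjusted p = 4.1e-06) and by -1.05 from the knockout (adjusted p = 0.004). The remaining one read 517 to 983 in the knockout and 150 to 478 in line R, against 3.42 to 120 in the wild type, where several arrays lay below background, so no fold is given. Correlations with the brightest over the 27 arrays were 0.95 for the second and 0.87 for the remaining one, which include the differences between lines. The summed intensity of the 4 muscle markers was 56.6 to 122 over knockout arrays and 90.8 to 234 over line R arrays, against 98.6 to 278 over wild-type arrays. Of these markers Myod1 and Myog averaged below background in every line, and Des averaged 18.5 in the knockout and 85.9 in line R, against 72.6 in the wild type.

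**Figure D4:**
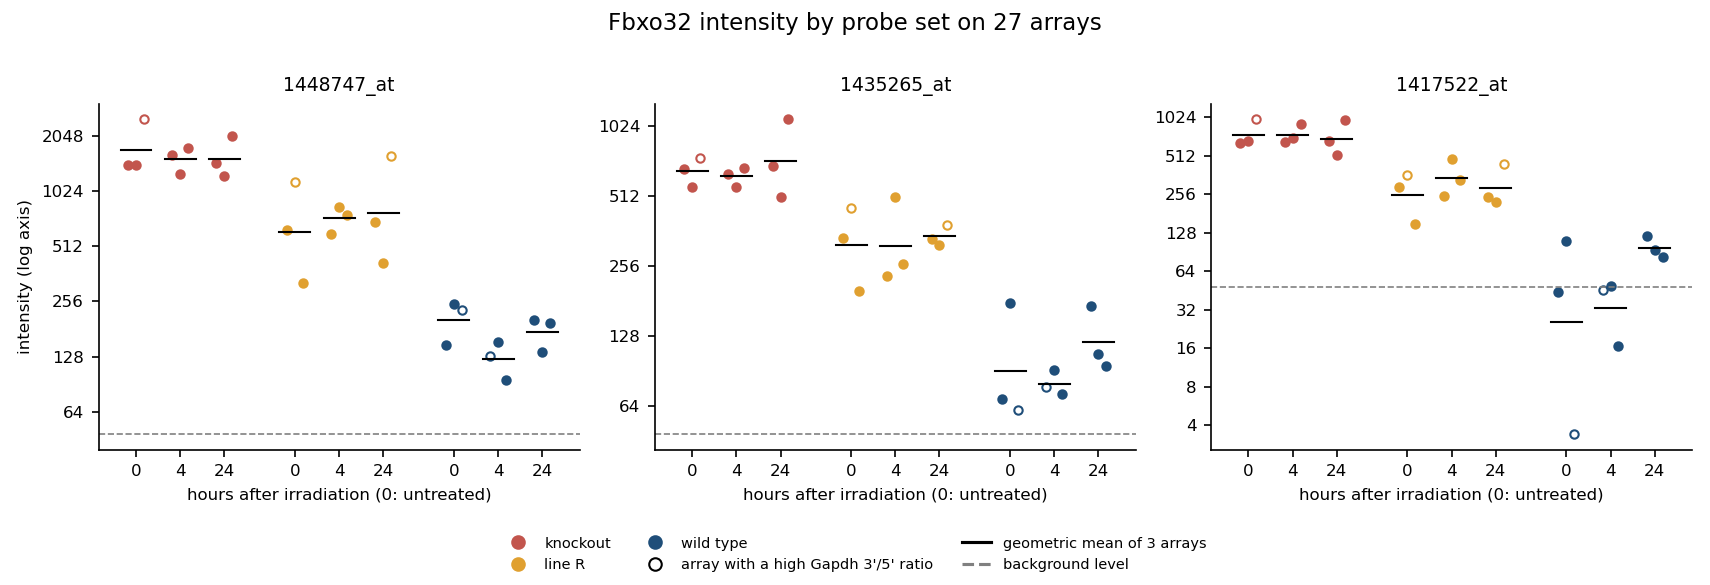
Intensity (log scale) of the 3 Fbxo32 probe sets on the 27 arrays, by line and time, with bars at the geometric mean of each group, open circles for the 5 arrays with a high Gapdh ratio and a dashed line at the background level of 48.3. In each panel the knockout is highest, line R lies between and the wild type is lowest.

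**Figure D5:**
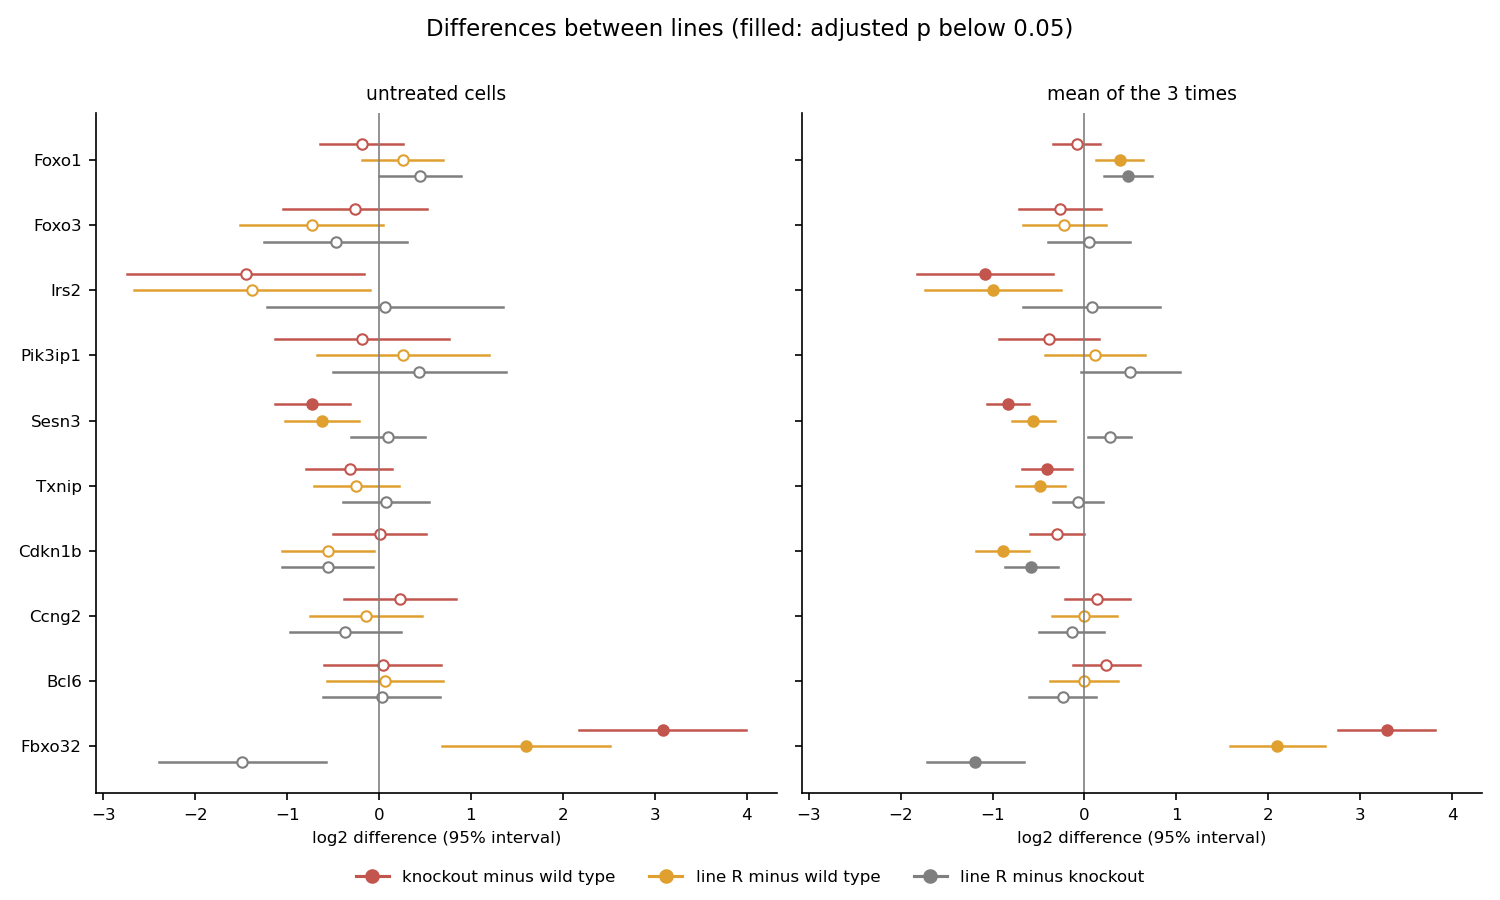
Differences between lines of each member on the log2 scale (points, with 95% intervals), in untreated cells and over the mean of the 3 times, filled where the adjusted p is below 0.05. Fbxo32 lies far to the right for the knockout and line R against the wild type, and Irs2, Sesn3 and Txnip lie to the left.

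Among themselves the members did not move as 1 block. Over the 27 arrays, which share 3 lines and 3 times, Txnip ran with Cdkn1b (r = 0.75), Pik3ip1 with Ccng2 (r = 0.71) and Sesn3 with Txnip (r = 0.67) and Pik3ip1 (r = 0.65). Fbxo32 ran opposite to Txnip (r = -0.66) and Sesn3 (r = -0.55). Once the group means were taken away, Txnip ran opposite to Fbxo32 (r = -0.8) and to Irs2 (r = -0.72), and Foxo3 ran opposite to Cdkn1b (r = -0.79). Irs2 then ran with Foxo1 (r = 0.79) and with Fbxo32 (r = 0.74). The ranks of the 5 arrays that stood apart within their groups are given above for each of these genes.

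Among 12261 genes with a group mean above background, those closest in pattern to each member over the 27 arrays were picked by Pearson correlation. Closest to Fbxo32 were Pappa, Myl9 and Rab11a (each r = 0.96), and closest to Sesn3 were Phyh (0.91), Lyplal1 (0.90) and Cd81 (0.90). Irs2 was matched by Purb, Crim1 and Amotl1 (each 0.91), Foxo1 by Helz (0.93), Tnrc6c (0.90) and Col16a1 (0.90), and Foxo3 by Rmnd5b (0.89), Dym (0.85) and Man2c1 (0.85). Vwa5a was the closest gene to both Pik3ip1 (0.87) and Ccng2 (0.84). Txnip was closest to Aptx (0.88), Cdkn1b to Lifr (0.87) and Bcl6 to Smox (0.84). None of the genes named here is itself a member.

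A wider list of 36 further FOXO targets, all measured, moved both ways between lines. Over the mean of the times 8 were higher and 9 lower in the knockout against the wild type (median -0.10, against -0.02 for all genes), 17 of 36 where 33% of all genes were called. Gabarapl1, a protein of the autophagosome, was lower, at 2769 against 7367 in the wild type (-1.41, adjusted p = 8.9e-11). The transcription factor gene Klf6, at 2927 against 1344 (1.12, adjusted p = 1.2e-08), and Sod2, the mitochondrial superoxide dismutase, at 7724 against 4168 (0.89, adjusted p = 8.5e-08), were higher. In line R 6 were higher and 8 lower, where 34.1% of all genes were called, with Gabarapl1 at 2483 against 7367 (-1.57, adjusted p = 1.6e-11) and Pdk4, a kinase that shuts off pyruvate dehydrogenase, at 58.9 against 238 (-2.02, adjusted p = 6.2e-07). At 4 h, over the mean of the lines, 1 rose and 6 fell, where 15.5% of all genes were called, among them Hbp1, a repressor of the cell cycle (-0.69, adjusted p = 0.0012), the sestrin Sesn1 (-0.62, adjusted p = 0.0033) and Bnip3, a mitophagy receptor (-0.63, adjusted p = 0.004). Between 24 h and 4 h 6 rose and 0 fell, where 10.4% of all genes were called, among them Gadd45a, a stress sensor of growth arrest (0.90, adjusted p = 0.00087), Hbp1 (0.67, adjusted p = 0.0022) and the autophagy gene Map1lc3b (0.35, adjusted p = 0.0058). In the wild type alone, 4 fell at 4 h and 0 rose, where 3.25% of all genes were called, with Map1lc3b at 6089 against 9235 in untreated cells (-0.60, adjusted p = 0.017) and Sesn1 at 568 against 1032 (-0.86, adjusted p = 0.041). Without the 5 arrays that stood apart, 9 were higher and 12 lower in the knockout and 8 higher and 9 lower in line R, where 7017 and 6971 of the 18194 genes were called. In the same fit 4 fell and 0 rose at 4 h and 7 rose and 0 fell between 24 h and 4 h over the mean of the lines, where 2493 and 2599 genes were called. Map1lc3b was then, in the wild type at 4 h, the only 1 of the list called (-0.54, adjusted p = 0.021), where 366 genes were.

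Genes that FOXO factors are known to repress, and regulators of FOXO, were set beside the members. Of 4 repressed targets, 1 was higher and 3 lower in the knockout against the wild type over the mean of the times, where 33% of all genes were called. Ccnd1, which encodes cyclin D1, averaged 2552 against 6937 (-1.44, adjusted p = 6.7e-10), and Id1, an inhibitor of differentiation factors, 3624 against 7336 (-1.02, adjusted p = 3.9e-06). In line R against the wild type 0 repressed targets were higher and 3 lower, where 34.1% of all genes were called. At 4 h over the mean of the lines Ccnd1 (0.52, adjusted p = 0.0019) and Id1 (0.56, adjusted p = 0.0076) rose and 0 fell, where 15.5% of all genes were called. Between 24 h and 4 h 0 repressed targets rose and 3 fell, where 10.4% of all genes were called. Of 26 regulators 24 were measured, and 5 were higher and 3 lower in the knockout, near the 33% of all genes called. Akt1, the gene that the knockout line lacks by design, was 1 of the 3 lower. Sgk3, of the SGK kinases, which like PKB can phosphorylate FOXO proteins, averaged 368 in the knockout and 195 in line R, against 74.6 in the wild type (2.30, adjusted p = 5.3e-11, and 1.39, adjusted p = 9.2e-08). The acetyltransferase gene Kat2b averaged 1383 in the knockout against 2426 in the wild type (-0.81, adjusted p = 6.1e-05). At 4 h 3 regulators rose over the mean of the lines, where 15.5% of all genes were called, among them Skp2, a ubiquitin ligase subunit that targets FOXO1 and p27 (0.62, adjusted p = 0.00089), and the kinase gene Cdk2 (0.60, adjusted p = 0.0015). Without the 5 arrays the repressed targets kept these counts, and of the regulators 8 were higher and 6 lower in the knockout and 5 rose at 4 h, where 7017 and 2493 of the 18194 genes were called.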

How the data were processed

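RNA of 27 cultures was measured on Affymetrix arrays. The deposited values are intensities on a linear scale, which the authors scaled so that the mean after trimming 2% at each end was 500 on every array. RMA and GCRMA are named, with neither version nor role, per the submitters' processing notes, and linear values with array medians of 54.4 to 80 are not the form that either gives, so the summary method is not known. Arrays have no counting depth, and their number limits the precision. Log2 values were computed here from the deposited intensities, without offset or further normalization. Control probe sets (64) were set aside, genes were named through the platform annotation and the RefSeq gene table, and the brightest probe set stood for each of 18194 genes. Of the probe sets, 34958 had 1 symbol, 932 several and 9147 none. Background was the highest of 243 values of 9 Y-linked probe sets. On each array 10578 to 11683 genes lay above it. No pair of arrays was a duplicate (highest correlation 0.9518).

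Limma 3.58.1 in R 4.3.3 fitted 9 group means to all arrays (18 residual and 1.39 prior degrees of freedom), with two-sided p-values adjusted by Benjamini-Hochberg over all genes of a comparison at 0.05, or over 45037 probe sets where each was tested by itself. The procedure was tested on simulated data. Members, lists, comparisons and alternatives were chosen with earlier results of these data known. All members were named in every comparison, and of each further list up to 3 genes with the smallest p among those called in a comparison. A list of 6 Txnip partners had 1 higher and 0 lower in the knockout and 2 higher and 1 lower in line R against the wild type over the mean of the times. There, 33% and 34.1% of all genes were called. Of the other irradiation checks at 4 h in the wild type, Ccng1 rose by 0.82 (adjusted p = 0.045) and Mdm2 gave 1.36 (adjusted p = 0.18). Without the arrays that stood apart Mdm2 passed there (1.48, adjusted p = 0.0097). In that fit the response of Ccng1 at 4 h also differed between the knockout and the wild type (-1.29, adjusted p = 0.034). Within the knockout and within line R, 0 of 3 checks were called at 4 h or at 24 h, with or without those arrays. Promoter sequences are RefSeq's, of GRCm38.p6. Alternatives were another scaling, offset, filter, choice of probe sets, variance prior, set of arrays or replicate block, and leaving out each array.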

Additional observations from a re-analysis of the deposited data

How the results depend on the processing

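Of 9120 results of single members under 38 alternatives, 8587 kept their direction and side of the threshold, 380 changed sign between differences that both missed the threshold, 95 lost and 57 gained a call, and 1 reversed with a call, Cdkn1b at 4 h in the wild type, at -1.30 by its second probe set against 0.19 by the brightest. Called in all 38 alternatives were Fbxo32 in each comparison of lines over the mean of the times and in the untreated knockout against the wild type, Sesn3 in both lines against the wild type over the mean of the times and in the mean of lines at 4 h and between 24 h and 4 h, and Cdkn1b in line R over the mean of the times against either line. The alternative with each probe set by itself took, for each member and comparison, the probe set with the smallest p. This favours a call, and a call there does not mean that every probe set of the gene passed. The number of members called over the 6 irradiation comparisons was 2, against 1 with a replicate block, with quantile normalization, with the mean of probe sets and with each probe set by itself, 0 with the compared arrays only and with equal array medians, and 0 to 3 leaving out each array. The 1 call was not among the 2 with the mean of probe sets (Sesn3 in the wild type at 4 h) or with each probe set (Cdkn1b, the same comparison). Over the 3 comparisons of 24 h with 4 h it was 1, against 0 with the compared arrays only, 2 with the replicate block, the intensity trend, genes above background, quantile normalization, an offset of 16, a floor at background and without the 5 arrays, and 1 to 2 leaving out each array. Over untreated lines it was 4, against 1 with the compared arrays only, 8 without the 5 arrays and 2 to 5 leaving out each array. Over the means of lines it was 6, against 3 with equal array medians, 8 without the 5 arrays (5 shared, Cdkn1b and Txnip at 4 h and Txnip between 24 h and 4 h gained) and 5 to 7 leaving out each array. The replicate numbers did not pair the arrays (108 pairs, r from -0.38 to 0.46, median 0.01, and 13 of 27 arrays correlated best with their own number). Over all genes the irradiation comparisons called 846, against 0 with the compared arrays only, 1426 with the trend, 1697 above background, 407 with equal medians, 338 with the mean of probe sets, 405 with each probe set and 1944 with the floor. For 24 h against 4 h they called 760, against 1 with the compared arrays only, 1427 above background, 462 with equal medians, 330 with the mean of probe sets, 384 with each probe set and 1863 with the floor. Untreated lines gave 7310, against 2401 with the compared arrays only. Differences in response gave 8, against 156 with the floor and 35 without the 5 arrays, and the mean of the times 15317, against 25677 with each probe set. The 405, 384 and 25677 with each probe set are numbers of probe sets, out of 45037 in each comparison. The main fit counts genes, out of 18194, so these numbers do not show more or fewer calls than it gave. Equal array medians moved the median of all genes from -0.001 to 0.221 in the untreated knockout against the wild type. The causes were not tested, apart from fewer arrays or genes where the alternative has them.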
